A study of Mus musculus with 6 samples.

Results

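The synaptic vesicle and SNARE genes were followed in cultured mouse dorsal root ganglion (DRG) neurons, the sensory neurons that carry touch, itch and pain signals to the spinal cord. The set was taken by symbol from the protein-coding rows of the gene table and comprised the synaptotagmins, synapsins, SV2 glycoproteins, VAMPs, syntaxins, complexins, Rab3 GTPases and genes named Snap with a number. It held 58 of the 45777 genes in the table. Snap91 entered by its name alone, since it encodes AP180, an adaptor that assembles clathrin coats, and it is described apart from the SNARE genes. Of the 58 genes, 53 had enough counts to be tested.

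The ONCM group was 3 samples that received 100 ng/ml of recombinant oncomodulin, a protein of the parvalbumin family that binds calcium, for 12 hours. The PBS group was 3 samples given phosphate-buffered saline as the negative control. All 6 were labelled as cultured DRG neurons from wild-type female C57BL/6 mice aged 8 weeks. The labels call the samples biological replicates without naming separate cultures or animals, so p-values here reflect only how far these samples vary, which may be technical. The labels give no sort or gate.

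A vesicle fuses when a VAMP in its membrane zips together with a syntaxin and a SNAP-25 family protein in the target membrane. Synaptotagmins tie this step to calcium, complexins hold and release the partly zipped complex, Rab3 GTPases and synapsins keep vesicles near the release site, and SV2 proteins sit in the vesicle membrane. In sensory neurons this machinery releases glutamate and neuropeptides from the terminals, and SNARE-driven fusion also adds membrane to growing axons.

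Libraries held 53770820 to 60291315 counts with ONCM and 55920700 to 64477014 with PBS. Neuronal markers were abundant in every library, summing to 29012 to 30643 CPM (counts scaled to library depth) with ONCM and 30066 to 31076 CPM with PBS over 24 genes. The ranges of these sums overlapped, but 8 of the genes rose and 10 fell. Taken singly, 20 of the 24 (83.3%) had groups that did not overlap, against 55.6% of all tested genes. Schwann cell markers summed to 4129 to 4275 CPM with ONCM and 3986 to 4049 CPM with PBS over 13 genes (5 rose, 1 fell). The 9 satellite glia markers summed to 2294 to 2457 CPM with ONCM and 2234 to 2309 CPM with PBS (3 rose, 1 fell). Macrophage markers, 16 of 16 raised, summed to 195 to 203 CPM with ONCM and 55.1 to 60.9 CPM with PBS. Fibroblast markers summed to 492 to 512 CPM with ONCM, against 358 to 365 CPM with PBS, over 10 genes (6 rose, 1 fell), and endothelial markers to 215 to 226 CPM with ONCM, against 176 to 181 CPM with PBS, over 10 genes (7 rose, 0 fell). None of these marker genes was at 0 in any library. In such mixed cultures, fewer cells of a type and less RNA per cell cannot be told apart. The sex-linked transcripts went against the labels. Xist, made from the inactive X chromosome, stood at 413 to 513 CPM with ONCM and 0.485 to 0.588 CPM with PBS, while Ddx3y of the Y chromosome stood at 15.1 to 16.9 CPM with ONCM and 58.1 to 62.4 CPM with PBS. Treatment and this difference between the groups cannot be told apart in any comparison of these data.

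Oncomodulin-treated cultures had lower levels of many transcripts of the calcium-triggered release machinery and slightly higher levels of several syntaxins. By edgeR's quasi-likelihood test, 20 of the 53 tested genes fell and 12 rose at an adjusted p under 0.05, and 21 did not pass. Over all 20354 tested genes, 48.3% changed (24.4% fell and 23.9% rose), so the share of falls among the vesicle and SNARE genes (37.7%) stood above the background and the share of rises (22.6%) was near it. The median log2 fold change was -0.08 over the 53 genes and -0.0021 over all tested genes. Of the 53 genes, 35 had groups that did not overlap (66% against 55.6% of all tested genes). The balance depended on scaling. Scaled on the neuronal markers, 19 fell and 18 rose, while over all 20354 tested genes 4108 fell and 5636 rose. Rises were then 48.6% of the calls in the set and 57.8% of all calls. With limma on log2(TPM + 1), where TPM is a level corrected for transcript length, 23 fell and 8 rose. Over all tested genes 5589 then fell and 3613 rose, so rises were 25.8% of the calls in the set and 39.3% of all calls.

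More falls than rises passed a minimum size. When edgeR tested for a change beyond 1.2-fold, 14 genes fell (26.4%, against 10.6% of all tested genes) and 2 rose (3.77%, against 11.4%). The 14 were Cplx2, Syt3, Syt13, Rab3b, Sv2b, Vamp1, Syt2, Syt7, Rab3a, Snap25, Syn2, Syt6, Rab3d and Syt9, and the 2 were Syt4 and Snap91. Of the 32 genes called without that minimum, 8 had a log2 change of less than 0.25 in size, 6 of them rises. At an unadjusted p under 0.05, 24 fell and 15 rose.

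**Figure D1:**
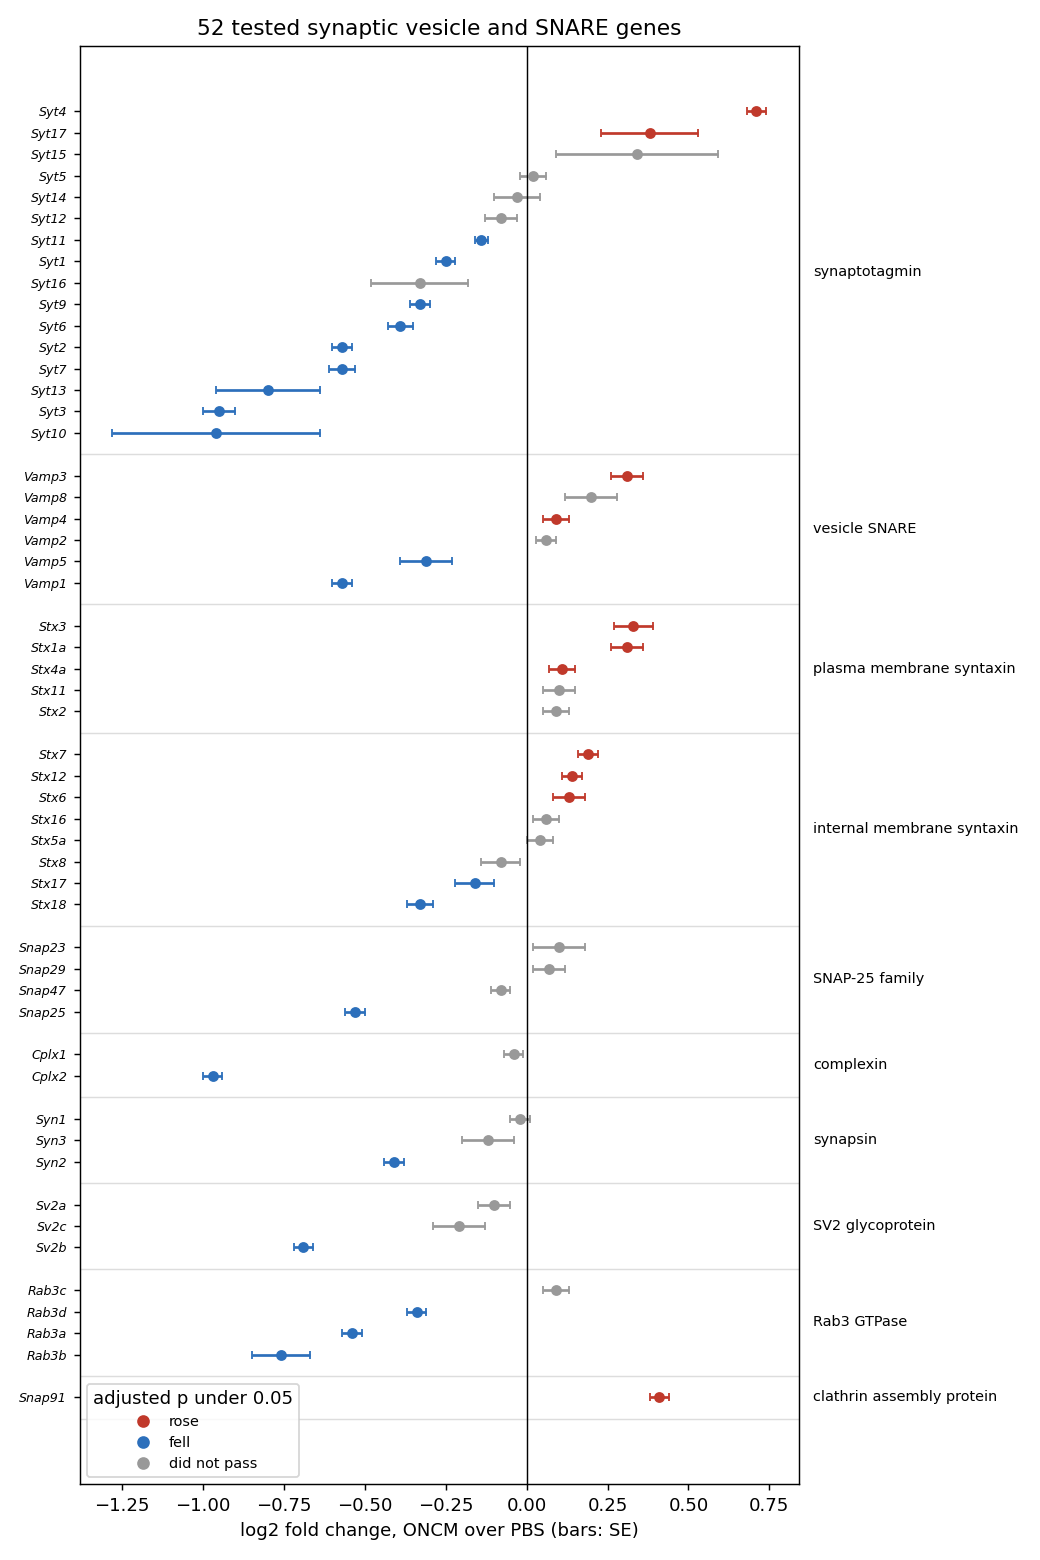
Log2 fold change of ONCM over PBS (x axis) with its SE for 52 of the 53 tested genes, grouped by role, in red where the gene rose, blue where it fell and grey where it did not pass. Synaptotagmins reach from -0.96 for Syt10 to 0.71 for Syt4, and the plasma membrane syntaxins shown all lie above 0, up to 0.33 for Stx3.

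The 300 bases around a transcription start, 250 before it and 50 after, were read from RefSeq for 46 of the 58 genes (build GRCm38.p6). The windows of 4 genes, picked after their values were seen, are shown as examples and do not stand for the set. They belong to a calcium sensor and a vesicle SNARE that fell and to a pair of syntaxins that rose. Neither syntaxin passed the 1.2-fold minimum. They are written 5′ to 3′ on the gene's strand, and capitals mark the letters GGGCGG or their reverse complement, the core of a GC box. The Syt3 window is chr7:44383876-44384175 (plus strand), that of Vamp1 chr6:125215331-125215630 (plus), that of Stx1a chr5:135023232-135023531 (plus) and that of Stx12 chr4:132884409-132884708 (minus).
Syt3: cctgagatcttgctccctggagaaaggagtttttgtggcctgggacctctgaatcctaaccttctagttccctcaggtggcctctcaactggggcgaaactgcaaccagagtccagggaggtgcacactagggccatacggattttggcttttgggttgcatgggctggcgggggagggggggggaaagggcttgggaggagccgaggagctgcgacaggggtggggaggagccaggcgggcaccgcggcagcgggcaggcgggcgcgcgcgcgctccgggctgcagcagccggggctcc
Vamp1: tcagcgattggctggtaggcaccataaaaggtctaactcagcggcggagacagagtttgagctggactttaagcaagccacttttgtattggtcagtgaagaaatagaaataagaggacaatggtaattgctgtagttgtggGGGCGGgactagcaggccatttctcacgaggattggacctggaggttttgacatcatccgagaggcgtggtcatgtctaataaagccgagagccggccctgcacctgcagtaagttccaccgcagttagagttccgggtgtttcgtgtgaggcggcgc
Stx1a: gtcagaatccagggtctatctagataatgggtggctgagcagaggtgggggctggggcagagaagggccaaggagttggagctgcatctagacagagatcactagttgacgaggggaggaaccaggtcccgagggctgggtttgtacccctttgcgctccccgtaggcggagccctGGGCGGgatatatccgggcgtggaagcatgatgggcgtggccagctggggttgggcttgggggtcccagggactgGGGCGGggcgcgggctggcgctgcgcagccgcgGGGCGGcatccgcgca
Stx12: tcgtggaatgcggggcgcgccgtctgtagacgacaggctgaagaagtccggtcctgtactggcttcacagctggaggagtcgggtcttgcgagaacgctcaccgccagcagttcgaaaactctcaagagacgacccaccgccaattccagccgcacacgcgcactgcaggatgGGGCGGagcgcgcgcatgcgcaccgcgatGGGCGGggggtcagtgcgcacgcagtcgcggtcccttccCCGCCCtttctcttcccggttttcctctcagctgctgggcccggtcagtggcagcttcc
The Vamp1, Stx1a and Stx12 windows surround the outer start of the gene, whereas the Syt3 window surrounds a start inside the gene, whose span begins at 44382773. The Syt3 window had no GGGCGG, the Vamp1 window 1, and the Stx1a and Stx12 windows 3 each. Searched on both strands, GGGCGG was in 8 of 10 windows of the genes that rose (80%), in 18 of 26 windows of those that fell (69.2%), in 40 of the 62 windows of the whole set (64.5%) and in 35.7% of all 32851 windows. The 10 windows belong to 8 genes and the 26 to 17. The median GC content was 63.8% in the windows of genes that rose, 58.3% in those of genes that fell and 52.7% in all windows. The cyclic AMP response element TGACGTCA was in 0 of the 10, 0 of the 26 and 1.79% of all windows. The AP-1 motif TGANTCA was in 0, 2 and 7.81%, the STAT motif TTCNNNGAA in 0, 3 and 8.3%, and the half-site CAGCACC of the neuronal repressor REST in 0, 1 and 7.14%. The motifs were searched without regard to overlap between them, and a match is a run of letters, not a shown binding site.

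Synaptotagmins, the calcium sensors, made up the largest family, with 16 of 17 genes tested. Of these 9 fell (56.2%, against 24.4% of all tested genes), 2 rose (12.5%, against 23.9%) and 5 did not pass. The median log2 fold change was -0.29. The fast sensors of evoked release were lower with ONCM. Syt1, the classical sensor for synchronous release (chromosome 10, 108497650 to 109010980), had 145, 147 and 146 CPM with ONCM, against 176, 173 and 174 CPM with PBS. Syt2, its close relative in fast-firing neurons (chromosome 1, 134646534 to 134753149), had 294, 306 and 291 CPM with ONCM, against 442, 452 and 430 CPM with PBS. Neither gene had a library that overlapped the other group. Syt2 fell by 0.57 on the log2 scale (SE 0.03, edgeR adjusted p = 1.8e-11) and Syt1 by 0.25 (SE 0.03, edgeR adjusted p = 9.67e-07), so Syt1 did not pass the 1.2-fold minimum (adjusted p = 0.792).

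The slow, high-affinity sensors Syt7 and Syt3 fell as well, as did Syt6 and Syt9. Syt7, a sensor of asynchronous release and of lysosome fusion (chromosome 19, 10388802 to 10453181), had 96.2, 101 and 99.2 CPM with ONCM, against 149, 150.4 and 140 CPM with PBS, a fall of 0.57 on the log2 scale (SE 0.04, edgeR adjusted p = 2.25e-10). Syt3, another high-affinity sensor (chromosome 7, 44382773 to 44400030), had 22, 24.4 and 24.5 CPM with ONCM, against 45.3, 45.8 and 45.5 CPM with PBS. Each Syt3 value with ONCM was far below the lowest with PBS, and the gene fell by 48.1% (log2 fold change -0.95, SE 0.05, edgeR adjusted p = 1.21e-11). Syt6, a relative of Syt3 studied in sperm exocytosis, had 67.8, 68.1 and 65 CPM with ONCM, against 85.2, 89.4 and 88 CPM with PBS, and Syt9 averaged 56.2 ± 0.67 CPM with ONCM and 70.6 ± 0.735 CPM with PBS (SD, n = 3 each). Both fell without overlap, by 0.39 and 0.33 on the log2 scale.

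Syt4 moved the other way. This synaptotagmin, found on dense-core vesicles and at the Golgi and known to be induced by neuronal activity (chromosome 18, 31437808 to 31447415), had 505, 485 and 487 CPM with ONCM, against 311, 294 and 299 CPM with PBS. The 2 groups were far apart, and Syt4 rose 1.63-fold (log2 fold change 0.71, SE 0.03, edgeR adjusted p = 8.95e-13), the largest rise among the 53 genes. Syt11, its closest relative and like it a synaptotagmin that lacks the usual calcium binding, was the most abundant synaptotagmin per length, at 568 ± 6.83 TPM with ONCM and 649.8 ± 4.03 TPM with PBS. It fell slightly, by 0.14 on the log2 scale (SE 0.02, edgeR adjusted p = 0.00014).

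The remaining synaptotagmins were scarce or did not pass. Syt13 had 1.3, 1.05 and 1.24 CPM with ONCM, against 2.03, 2.23 and 1.99 CPM with PBS, and fell by 0.80 on the log2 scale (SE 0.16, edgeR adjusted p = 0.000417). Syt17 had 2.6, 3.96 and 3.56 CPM with ONCM, against 2.43, 2.5 and 2.91 CPM with PBS, and its rise (edgeR adjusted p = 0.0451) came with groups that overlapped. Syt10 averaged 0.436 ± 0.187 CPM with ONCM and 0.851 ± 0.295 CPM with PBS (SD, n = 3 each), so that its fall (edgeR adjusted p = 0.02) rested on 17 to 39 counts a library against 33 to 75, also with overlap. Syt5, Syt12, Syt14, Syt15 and Syt16 did not pass, with log2 fold changes between -0.33 and 0.34. Syt8 was counted 6 times in 1 ONCM library and was at 0 in the other 5, and it was not tested.

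As a share of all synaptotagmin transcripts on the TPM scale, Syt4 was 24% ± 0.587 with ONCM and 14.1% ± 0.429 with PBS. Syt2 was 8.09% ± 0.224 with ONCM and 11.5% ± 0.226 with PBS (SD, n = 3 each). Summed over the family, synaptotagmins stood at 1269 ± 13.7 TPM with ONCM and 1384 ± 20.1 TPM with PBS, with groups that did not overlap.

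**Figure D2:**
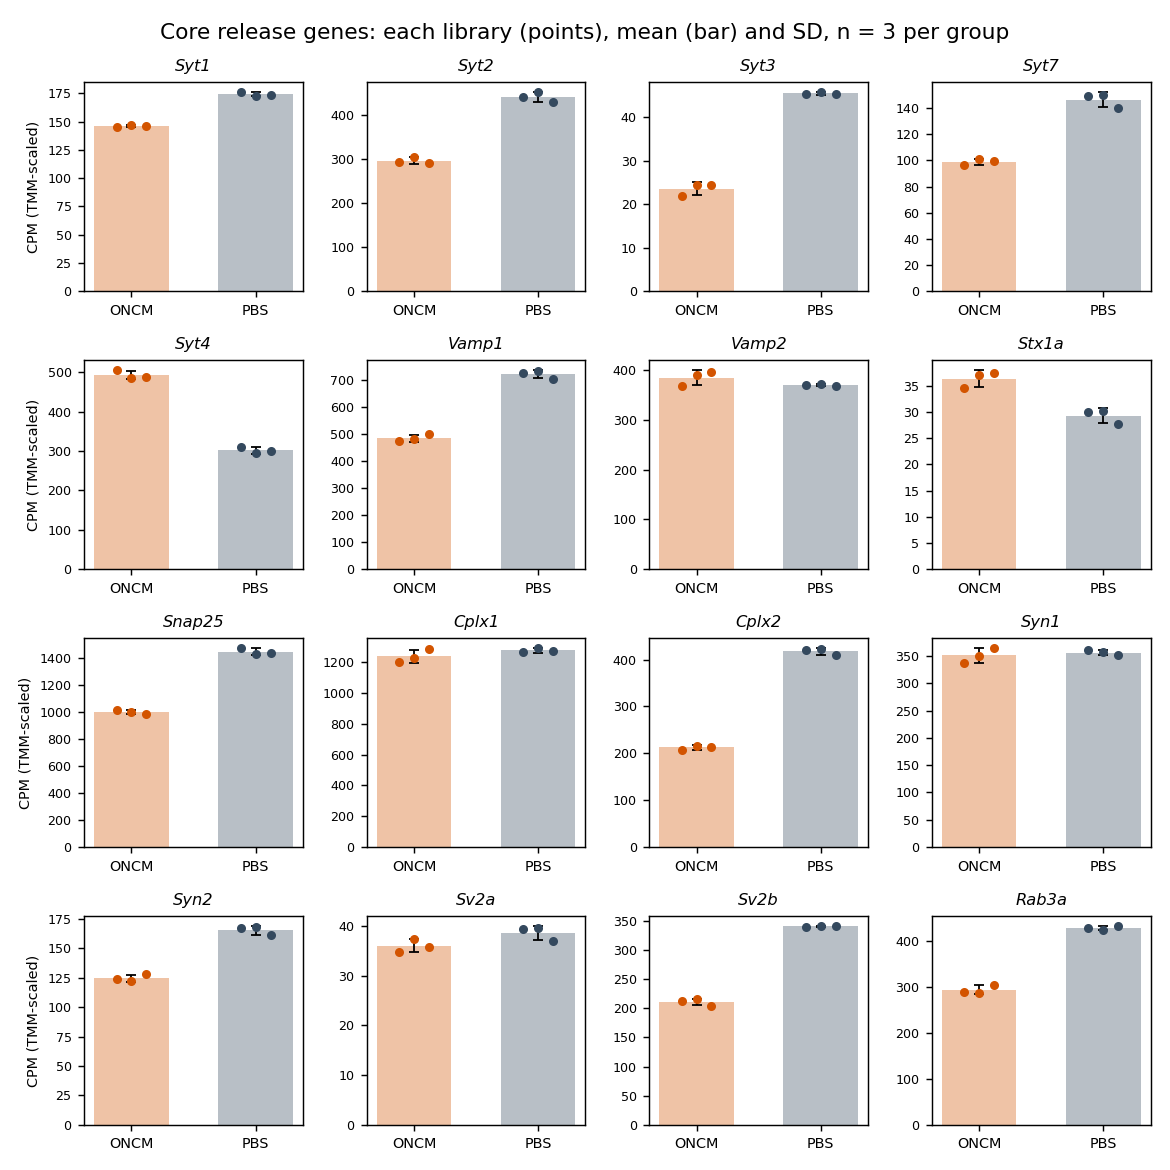
CPM (y axis, from 0) of 16 release genes in each library, with ONCM on the left and PBS on the right of each panel, points for libraries, bars for means and error bars for SD (n = 3 per group). Cplx2 with ONCM lies at 207 to 216 CPM against 409 to 423 CPM with PBS, while Cplx1, Vamp2, Syn1 and Sv2a overlap between the groups.

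Among vesicle SNAREs, 6 of 7 genes were tested. Of these 2 fell (33.3%, against 24.4% of all tested genes), 2 rose (33.3%, against 23.9%) and 2 did not pass. Vamp1 and Vamp2 encode synaptobrevins 1 and 2, the main synaptic forms, and they differed. Vamp1 (chromosome 6, 125215581 to 125222306) had 474, 483 and 499 CPM with ONCM, against 726, 735 and 706 CPM with PBS, a fall of 0.57 on the log2 scale (SE 0.03, edgeR adjusted p = 8.7e-12). Vamp2 (chromosome 11, 69088528 to 69092381) had 367, 390 and 396 CPM with ONCM, against 369, 372 and 368 CPM with PBS, with groups that overlapped and a log2 difference of 0.06 (SE 0.03, edgeR adjusted p = 0.151) that was slightly negative on the TPM scale (-0.0066). The TPM of Vamp1 was accordingly close to that of Vamp2 with ONCM, at 426 ± 7.17 and 432 ± 15.8 TPM, and above it with PBS, at 657 ± 18.8 and 433 ± 4.8 TPM.

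VAMPs of general membrane traffic moved in both directions. Vamp3, cellubrevin, which serves recycling endosomes in most cell types (chromosome 4, 151047305 to 151057953), had 31.3, 29.4 and 29.8 CPM with ONCM, against 24, 24.1 and 24.9 CPM with PBS, and rose 1.24-fold (log2 fold change 0.31, SE 0.05, edgeR adjusted p = 3.17e-05). Vamp4, of the trans-Golgi network, averaged 94 ± 1.56 CPM with ONCM and 88.4 ± 3.07 CPM with PBS, and its small rise (edgeR adjusted p = 0.0444) was lost under 11 of 15 alternatives. Vamp5, known from muscle and other non-neural cells, had 7.81, 7.45 and 7.25 CPM with ONCM, against 8.78, 9.48 and 9.57 CPM with PBS, and fell. Vamp8, of late endosomes and secretory granules, averaged 8.93 ± 0.271 CPM with ONCM and 7.8 ± 0.668 CPM with PBS and did not pass (edgeR adjusted p = 0.0538). Vamp9 had 7 to 10 counts with ONCM and 0 to 5 with PBS, too few to test. Macrophage markers were higher in the same ONCM libraries (195 to 203 CPM against 55.1 to 60.9 CPM), and their part in the rise of Vamp3 was not tested.

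Syntaxins, the target-membrane partners, were the family with the most rises. Of 14 tested, 7 rose (50%, against 23.9% of all tested genes), 2 fell (14.3%, against 24.4%) and 5 did not pass. The median log2 fold change was 0.09, with a range of -0.33 to 0.33. None of the 7 rises passed the 1.2-fold minimum. Stx1a, Stx3, Stx7 and Stx12 kept their rise in all 14 alternatives other than that minimum. None of the 6 tested plasma membrane syntaxins fell. Stx1a, a neuronal syntaxin of evoked release (chromosome 5, 135023482 to 135051100), had 34.5, 37.1 and 37.5 CPM with ONCM, against 30, 30.2 and 27.7 CPM with PBS, and rose 1.24-fold (log2 fold change 0.31, SE 0.05, edgeR adjusted p = 4.09e-05). Stx3, a syntaxin of apical membranes and ribbon synapses (chromosome 19, 11775118 to 11821569), had 14.5, 15.7 and 15.3 CPM with ONCM, against 12.8, 11.7 and 11.7 CPM with PBS, and rose by 0.33 on the log2 scale (SE 0.06). Stx4a, of regulated exocytosis in non-neural cells, had a log2 fold change of 0.11 (edgeR adjusted p = 0.0487), which was lost under 13 of 15 alternatives. Stx2 and Stx11 did not pass, and Stx19 had 0 counts in every library.

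Of the 8 syntaxins of internal membranes, 3 rose, 2 fell and 3 did not pass. The shares were 37.5% raised and 25% lowered, against 23.9% and 24.4% of all tested genes. Stx7, of late endosomes and lysosomes (chromosome 10, 24149289 to 24188961), had 177, 172 and 172 CPM with ONCM, against 151, 154 and 151 CPM with PBS. Stx12, of recycling endosomes (chromosome 4, 132854064 to 132884458), had 178, 171 and 178 CPM with ONCM, against 161, 158 and 158 CPM with PBS. Both rose without overlap, by 0.19 and 0.14 on the log2 scale (SE 0.03 each, edgeR adjusted p = 3.18e-05 and 0.000776). Stx6, of the trans-Golgi network, averaged 47.8 ± 2.83 CPM with ONCM and 43.6 ± 1.03 CPM with PBS, and its rise (edgeR adjusted p = 0.0217) was lost without ONCM replicate 3 or PBS replicate 2 or 3 and under the 1.2-fold minimum. Stx18, of the endoplasmic reticulum (chromosome 5, 38036729 to 38137770), averaged 31.2 ± 1.12 CPM with ONCM and 39.2 ± 0.842 CPM with PBS and fell by 0.33 on the log2 scale. Stx17, known from autophagosomes, averaged 14.8 ± 0.37 CPM with ONCM and 16.5 ± 0.0475 CPM with PBS, a small fall (edgeR adjusted p = 0.0301) lost under 8 of 15 alternatives. Stx8, an endosomal syntaxin that pairs with Stx7, did not pass (log2 fold change -0.08, SE 0.06, edgeR adjusted p = 0.25), and neither did Stx5a and Stx16. The part of the macrophage, fibroblast and endothelial markers, higher in the same ONCM libraries, in the rises of syntaxins was not tested.

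In the SNAP-25 family, the neuronal member fell and the broadly expressed ones did not pass. Snap25, the neuronal target SNARE cleaved by botulinum toxin A (chromosome 2, 136713439 to 136782428), had 1009.7, 999 and 985 CPM with ONCM, against 1471, 1427 and 1434 CPM with PBS, and fell by 30.9% (log2 fold change -0.53, SE 0.03, edgeR adjusted p = 4.34e-12). It was the most abundant of the 53 genes per length with PBS, at 1068 ± 45.8 TPM with ONCM and 1613 ± 153 TPM with PBS. Snap23, its counterpart in non-neural cells (chromosome 2, 120567655 to 120601255), had 8.2, 8.93 and 7.99 CPM with ONCM, against 7.64, 8.37 and 7.41 CPM with PBS, with groups that overlapped (edgeR adjusted p = 0.326). Snap29 and Snap47 had log2 fold changes of 0.07 and -0.08 and did not pass either.

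The 2 tested complexins differed. Cplx2 (chromosome 13, 54301964 to 54383923) had 207, 216 and 214 CPM with ONCM, against 419.7, 423 and 409 CPM with PBS. All 3 ONCM values were near 0.509 of the PBS level, the largest fall among the 53 genes (log2 fold change -0.97, SE 0.03, edgeR adjusted p = 7.63e-15). Cplx1 (chromosome 5, 108518554 to 108550027), the dominant complexin of these cultures, had 1206, 1226 and 1288 CPM with ONCM, against 1265, 1294 and 1277 CPM with PBS, and did not pass (log2 fold change -0.04, SE 0.03, edgeR adjusted p = 0.206). Its direction and lack of a call stayed the same in 11 of 15 alternatives, with log2 fold changes from -0.11 to 0.00091. On the TPM scale it had 1344, 1373 and 1407 with ONCM, against 1476, 1496 and 1467 with PBS, without overlap. Cplx1 therefore took 92.9% ± 0.194 of complexin TPM with ONCM and 87.4% ± 0.184 with PBS (SD, n = 3 each). Cplx3 and Cplx4, the complexins of retinal ribbon synapses, had at most 14 counts in a library and were not tested.

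Of the synapsins and of the SV2 glycoproteins, 1 member each fell. Among the synapsins, which tether vesicles to one another and to actin, Syn2 (chromosome 6, 115134902 to 115282626) had 124, 122 and 128 CPM with ONCM, against 167, 168 and 161 CPM with PBS, and fell by 0.41 on the log2 scale (SE 0.03, edgeR adjusted p = 5.85e-09). Syn1, the X-linked and most abundant synapsin (X, 20860511 to 20920918), had 338, 351 and 365 CPM with ONCM, against 361, 357 and 352 CPM with PBS. The Syn1 groups overlapped (log2 fold change -0.02, SE 0.03, edgeR adjusted p = 0.595), and its sign turned to 0.02 when libraries were scaled on neuronal markers. Syn3 averaged 11.4 ± 0.505 CPM with ONCM and 12.4 ± 1.28 CPM with PBS and did not pass. Of the SV2 glycoproteins, Sv2b (chromosome 7, 75114894 to 75309262) had 213, 215 and 204 CPM with ONCM, against 339.9, 340.3 and 341 CPM with PBS, a fall of 0.69 on the log2 scale (SE 0.03, edgeR adjusted p = 8.22e-13). Sv2a, the target of the antiepileptic levetiracetam, had 34.8, 37.4 and 35.8 CPM with ONCM, against 39.3, 39.5 and 36.9 CPM with PBS, and did not pass (edgeR adjusted p = 0.0801). Sv2c varied between libraries, at 279, 289.7 and 242 CPM with ONCM against 322, 328 and 287 CPM with PBS (edgeR adjusted p = 0.0858), with groups that overlapped.

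Of the 4 Rab3 genes, 3 fell (75%, against 24.4% of all tested genes). Rab3a, the GTPase most tied to synaptic vesicles (chromosome 8, 70754703 to 70758608), had 289.7, 288 and 306 CPM with ONCM, against 429, 426 and 434 CPM with PBS (log2 fold change -0.54, SE 0.03, edgeR adjusted p = 3.16e-11). Rab3b (chromosome 4, 108879070 to 108943324) had 6.01, 5.3 and 6.47 CPM with ONCM, against 8.95, 10.6 and 10.5 CPM with PBS, and fell by 0.76 on the log2 scale (SE 0.09). Rab3d, known from secretory granules of gland cells, averaged 105 ± 3.42 CPM with ONCM and 134 ± 0.52 CPM with PBS and fell by 0.34. Rab3c averaged 336 ± 20.1 CPM with ONCM and 315 ± 8.18 CPM with PBS, with groups that overlapped (edgeR adjusted p = 0.0567). Summed over the family, Rab3 transcripts stood at 659 ± 5.81 TPM with ONCM and 937 ± 7.03 TPM with PBS. The groups of that sum did not overlap.

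Snap91, the clathrin assembly protein gene (chromosome 9, 86765923 to 86880734), had 395, 390.2 and 388 CPM with ONCM, against 299, 298 and 288 CPM with PBS. It rose 1.33-fold (log2 fold change 0.41, SE 0.03, edgeR adjusted p = 8.28e-10). Its ubiquitous relative Picalm, in the list of endocytosis genes, rose by 0.09 on the log2 scale.

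Within-family balance was read as the ratio of 2 paralogs in the same library, which does not depend on how libraries are scaled. In all, 10 pairs were compared, of which 9 are described. The pairs were chosen with earlier results of these data known. The ratio Syt4/Syt1 was 4.19, 3.97 and 4.03 with ONCM, against 2.15, 2.05 and 2.08 with PBS. The ratio Cplx2/Cplx1 was 0.076, 0.078 and 0.0736 with ONCM, against 0.147, 0.144 and 0.142 with PBS. The ratio Vamp1/Vamp2 was 1.01, 0.962 and 0.987 with ONCM, against 1.54, 1.52 and 1.49 with PBS. In these 3 pairs the libraries of each group lay close together and the groups were well separated. Sv2b/Sv2a averaged 4.21 ± 0.165 with ONCM and 6.33 ± 0.253 with PBS, Syn2/Syn1 0.313 ± 0.00707 and 0.407 ± 0.00322, and Syt7/Syt1 0.442 ± 0.00958 and 0.553 ± 0.0265 (SD, n = 3 each). Snap23/Snap25 averaged 0.00816 ± 0.000863 with ONCM and 0.00515 ± 0.000703 with PBS, and Vamp3/Vamp2 0.0804 ± 0.00609 and 0.0674 ± 0.0016. These 8 ratios had no overlap between groups. Taken singly, 55.6% of all tested genes had none in CPM, and the share over other gene pairs was not taken. Each of the 8 gave p = 0.1 in an exact permutation test over samples (two-sided), the smallest value that 3 against 3 allows. Adjusted over all 10 pairs, that permutation p was 0.111. Rab3b/Rab3a, at 0.00881 ± 0.00064 with ONCM and 0.0102 ± 0.000929 with PBS, overlapped (exact permutation p = 0.2).

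**Figure D3:**
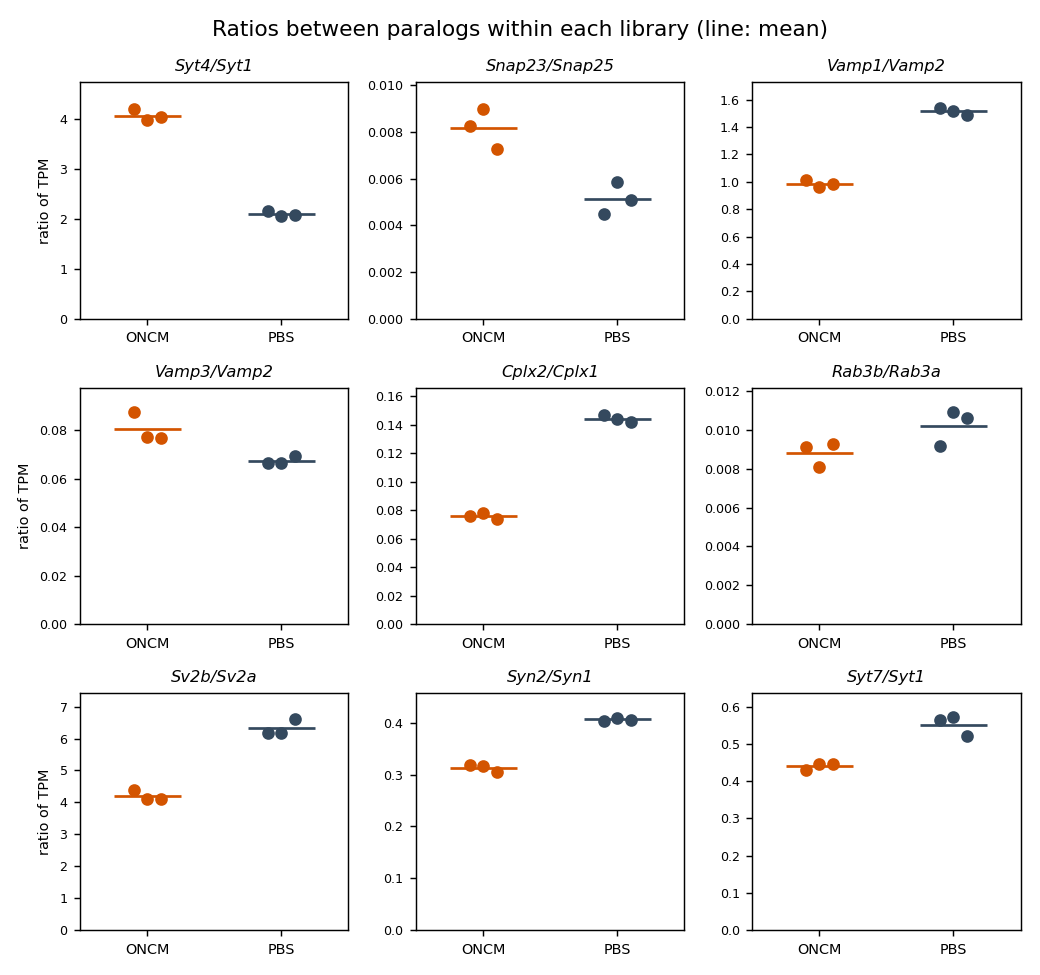
Ratio of TPM between 2 paralogs (y axis, from 0) in each library for 9 pairs, ONCM left and PBS right, with lines at the means. Syt4/Syt1 is near 4.06 with ONCM and 2.09 with PBS, and only Rab3b/Rab3a has overlapping groups among the 9.

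Falls and rises occurred among abundant and scarce genes alike. Of the 20 genes highest with PBS on the TPM scale, 9 fell (45%) and 5 rose (25%). Of the other 33 tested, 11 fell (33.3%) and 7 rose (21.2%). Over all tested genes, 24.4% fell and 23.9% rose. Across the 53 genes, which share their libraries, Spearman's rho between the PBS level and the log2 fold change was -0.11, and across all tested genes it was -0.12.

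Other genes of vesicle release, and relatives of the vesicle and SNARE genes in other membrane traffic, were counted in 7 lists drawn up by role, with 118 genes tested, of which 60 fell (50.8%, against 24.4% of all tested genes) and 27 rose (22.9%, against 23.9%). Among regulators of SNARE assembly and vesicle priming, 15 of 23 fell (65.2%), 3 rose (13%) and 5 did not pass. Rph3a, the Rab3 effector rabphilin, averaged 247 ± 7.84 CPM with ONCM and 526 ± 11.8 CPM with PBS and fell by 1.09 on the log2 scale (SE 0.03, edgeR adjusted p = 3.46e-15). The dense-core vesicle priming genes Cadps and Cadps2 fell by 0.50 and 0.57, and Prrt2, a SNARE-binding protein, by 0.43. Nsf, the ATPase gene that takes SNARE complexes apart, fell by 0.14. In the same list Napa rose by 0.32, Napg fell by 0.17 and Napb did not pass. Doc2b, a C2-domain protein that binds SNAREs, had 2.27, 2.13 and 2.58 CPM with ONCM, against 0.619, 0.894 and 0.865 CPM with PBS, and rose 2.95-fold (edgeR adjusted p = 1.04e-06).

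Of the 19 active zone genes, 10 fell (52.6%, against 24.4% of all tested genes), 5 rose (26.3%, against 23.9%) and 4 did not pass. Rims3 and Lin7a, for a release-site scaffold and an adaptor, fell by 0.63 and 0.78 on the log2 scale. Apba2, an adaptor of the presynaptic release site, rose by 0.88 (SE 0.04, edgeR adjusted p = 1.02e-12), and the scaffold gene Erc2 rose by 0.49. Vesicle membrane and cargo genes had 10 of 22 lowered (45.5%), 2 raised (9.09%) and 10 not passing. The tetraspan vesicle genes Syngr1, Syngr3 and Scamp1 fell by 0.54, 0.35 and 0.35, and Sncb, the beta-synuclein gene, averaged 113 ± 7.72 CPM with ONCM and 68.7 ± 1.59 CPM with PBS and rose by 0.72. Slc17a6, which loads glutamate into vesicles, averaged 276 ± 5.55 CPM with ONCM and 291 ± 5.74 CPM with PBS, a fall of 0.08. Of its relatives in the list, Slc17a7 did not pass (log2 fold change -0.05, edgeR adjusted p = 0.226) and Slc17a8 fell by 0.46.

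Endocytosis genes had 12 of 22 lowered (54.5%, against 24.4% of all tested genes), 7 raised (31.8%, against 23.9%) and 3 not passing. Sh3gl2 (endophilin), Pacsin1 (syndapin) and Dnm1 (dynamin), which shape and cut the endocytic neck, fell by 0.66, 0.47 and 0.32, and Ap2m1, a subunit of the clathrin adaptor AP-2, averaged 731 ± 32.7 CPM with ONCM and 566 ± 4.76 CPM with PBS and rose by 0.37. Of 12 tested SNAREs of the secretory pathway outside the set, 5 fell (41.7%), 2 rose (16.7%) and 5 did not pass. Sec22b and Gosr2, of traffic between the endoplasmic reticulum and the Golgi, rose by 0.23 and 0.13, and Sec22c and Bnip1 fell by 0.32 and 0.20.

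**Figure D4:**
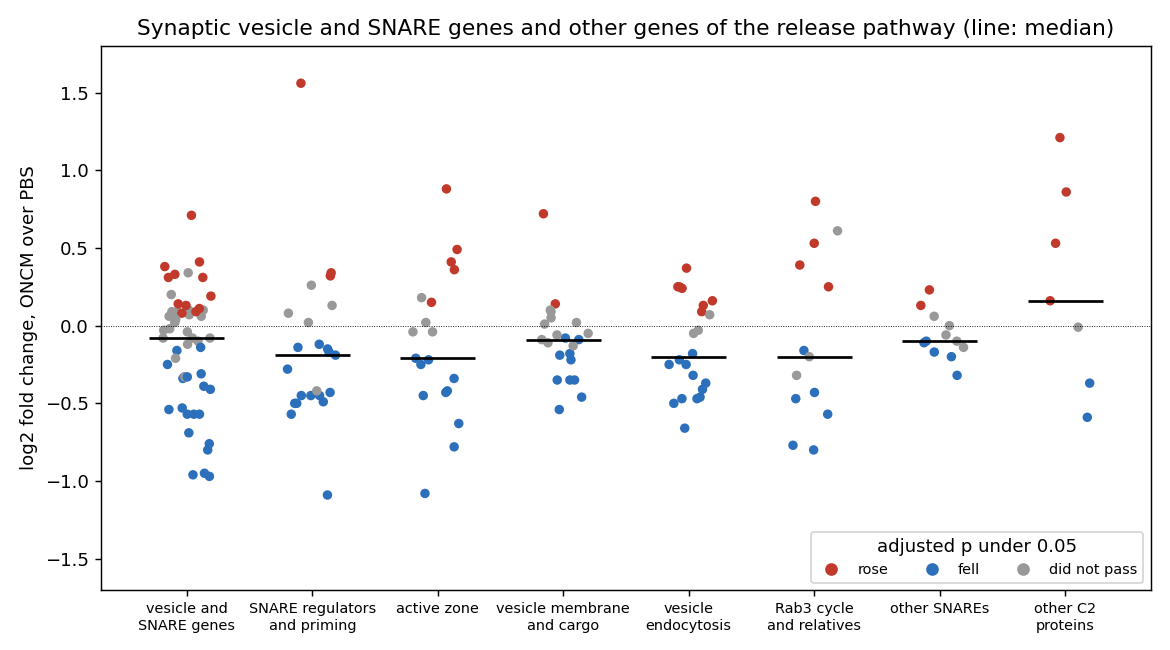
Log2 fold change of ONCM over PBS (y axis) for the 53 tested vesicle and SNARE genes and for 7 lists of other pathway genes, with a line at each median and colours by the edgeR call. The medians are -0.19 for SNARE regulators, -0.21 for active zone genes, -0.09 for vesicle membrane genes and -0.20 for endocytosis genes.

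Of the 58 genes, 26 overlap another gene in the RefSeq annotation, among them Cplx2, Snap25, Sv2b and Rab3b. For 10 of the 26 the other gene is protein-coding, among them Syt3, Syt1, Syn1, Syn2, Vamp3, Stx18 and Snap47. Such an overlap may lie in introns only, and how far exons overlap was not tested. Where exons of both genes share bases, reads cannot be told apart, since no strand setting is stated for the counts.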

How the data were processed

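The authors deposited raw read counts, FPKM and TPM per gene for 6 libraries. Per the submitters' processing notes the build is mm10, while the sources used here name no aligner, counter or strand setting. The deposited counts went into edgeR 4.0.16 under R 4.3.3 (filterByExpr, TMM, quasi-likelihood F-test with robust fitting, ONCM against PBS, no covariate), with Benjamini-Hochberg adjustment over 20354 genes and a threshold of 0.05. The SE is the log2 fold change divided by the square root of F. Printed CPM values are TMM-scaled. TPM values deposited by the authors served for levels between genes, paralog ratios (exact permutation in SciPy 1.17.1) and alternatives with limma 3.58.1 and pseudocounts of 1 and 0.1. DESeq2 1.42.0 was another alternative. The FPKM deposited by the authors were not used. TPM and counts can differ for genes with transcripts of unequal length. The test was also run on simulated counts with planted changes in far fewer genes than were called here. That run cannot show how often the test errs on these data. Coordinates come from RefSeq on GRCm38.p6, the assembly of mm10. A floor of 3 counts is 0.0465 to 0.0558 CPM and covers counting error only. Replicates differed by more than sampling noise (chi-square per degree of freedom 2.76 to 7.09).

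Full values are given for the 12 largest falls and 8 largest rises that passed with a mean of at least 1 CPM. The same holds for a fixed list of core release genes. Up to 4 genes per pathway list were named by smallest p, many with their log2 fold change alone. Nsf, Doc2b, Slc17a6, Picalm, Esyt2, Esyt3, Myof and other pathway genes beyond those were chosen after their values were seen, as were the promoters shown and their motifs. The genes, lists and pairs were chosen with earlier results of these data known. A few genes are counted in the totals but not reported here by name.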

Additional observations from a re-analysis of the deposited data

How the results depend on the processing

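Against alternatives other than the 1.2-fold minimum, 18 of the 20 falls and 7 of the 12 rises kept their direction and their call in all 14; the 7 were Snap91, Stx12, Stx1a, Stx3, Stx7, Syt4 and Vamp3. The 1.2-fold minimum left 4466 genes changed and 2 vesicle genes raised. The median of the set (-0.08) was -0.03 with scaling on neuronal markers, -0.04 without a count filter (-0.08 over the genes also tested with it), -0.11 on log2(TPM + 1), -0.13 on log2(TPM + 0.1), and -0.09 to -0.05 with 1 library left out. Leaving out 1 library gave 18 to 21 falls and 8 to 11 rises, with 8 rises without ONCM replicate 2 or PBS replicate 1. Genes that did not pass could gain a call under an alternative. Snap47 and Sv2c, lower with ONCM in every alternative, stayed without a call in 9 and 10 of 15. Rab3c, higher with ONCM in every alternative, stayed without one in 11 of 15. Other genes that did not pass could change sign. With neuronal scaling Cplx1 was 0.00091, Syn1 0.02 and Syt14 0.02. On log2(TPM + 1) and log2(TPM + 0.1) Stx16 was -0.0014 and -0.0015, Stx5a -0.03 in both, Syt5 -0.04 in both, Vamp2 -0.0066 in both, and Syt14 0.08 and 0.13. With 1 library left out Syn1 ran from -0.05 to 0.0041 (without ONCM replicate 1), and Syt5 ran from -0.02 (without ONCM replicate 3) to 0.06. The cause was not tested. Same-numbered samples did not vary together (correlations of deviations -0.0453 to 0.00167). The labels do not say whether samples were paired, and so few samples cannot decide it. With a replicate block 23 genes of the set fell and 11 rose, while over all tested genes 4864 fell and 4733 rose. Of all calls, 49.5% were rises, against 57.8% with neuronal scaling and 39.3% on log2(TPM + 1). Genes under about 1 CPM, such as Syt10, are limited by depth.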

Other observations

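Relatives of the vesicle genes moved in both directions. Of 7 tested proteins with several C2 domains, the module that synaptotagmins use to bind membranes, 4 rose, 2 fell and 1 did not pass. The shares were 57.1% raised and 28.6% lowered, against 23.9% and 24.4% of all tested genes. Esyt1, an extended synaptotagmin that tethers the endoplasmic reticulum to the plasma membrane, averaged 607 ± 12.2 CPM with ONCM and 334 ± 2.96 CPM with PBS and rose by 0.86 on the log2 scale (SE 0.03, edgeR adjusted p = 1.6e-14). Dysf, dysferlin of membrane repair, averaged 196 ± 5.6 CPM with ONCM and 135 ± 1.07 CPM with PBS and rose by 0.53. Fer1l6, another ferlin, averaged 2.45 ± 0.369 CPM with ONCM and 1.05 ± 0.133 CPM with PBS and rose by 1.21. Fer1l5, also a ferlin, averaged 2.03 ± 0.325 CPM with ONCM and 3.05 ± 0.475 CPM with PBS and fell by 0.59 (SE 0.15, edgeR adjusted p = 0.00376). Esyt3 fell by 0.37, Myof rose by 0.16 and Esyt2 did not pass.

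Of 13 tested genes around the Rab3 cycle and its relative Rab27, 6 fell, 4 rose and 3 did not pass. The shares were 46.2% lowered and 30.8% raised, against 24.4% and 23.9% of all tested genes. Rab27b and Rab27a, GTPases of secretory granules and exosomes, averaged 25.1 ± 1.06 and 14.5 ± 0.14 CPM with ONCM and 42.8 ± 1.27 and 25.3 ± 0.731 CPM with PBS, and fell by 0.77 and 0.80. Madd, an exchange factor that activates Rab3, averaged 208 ± 4.95 CPM with ONCM and 144 ± 3.34 CPM with PBS and rose by 0.53, while Rab3a itself fell. Sytl2, a Rab27 effector, rose by 0.39.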
